A study of Mus musculus with 24 samples.

Results

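The last interval of the culture series compared H3K27me3 in cerebellar granule neurons (CGNs) at 5 and at 7 days in vitro (DIV5 and DIV7). The members are the 6 libraries that the labels place at these days, 3 at DIV5 and 3 at DIV7, of 24 libraries in the series. All 6 came from CD1-IGS mice with no genetic change named: granule neuron precursors were isolated from the cerebellum at P6-P8 on a Percoll gradient, plated in Neurobasal with calf serum and B27, and given 1 µM cytosine arabinoside (AraC) at DIV2, which blocks division of the non-neuronal cells that remain. Each replicate is a culture from the pooled cerebella of litters, so no animal has a value of its own, and the gradient and AraC reduce other cell types without sorting them out. Another 6 libraries of the series, which received the vehicle DMSO in the drug experiments and were harvested at DIV5, are used below as further DIV5 libraries.

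H3K27me3 is trimethylation of lysine 27 of histone H3. Polycomb repressive complex 2 writes it through EZH1 or EZH2, the demethylases KDM6A and KDM6B remove it, and promoters that carry it are as a rule weakly transcribed or silent. In developing neurons the mark covers genes of other lineages and genes whose expression is confined to another stage. CUT&RUN cuts DNA around an antibody bound in intact nuclei, here an antibody to H3K27me3, and the cut fragments are sequenced. What was available per library was a list of broad peaks, the stretches where a peak caller found more fragments than its background model, each with a fold enrichment and a -log10 p. Reads and depth are unknown, so a region with no peak lay below the caller's threshold and is not shown to lack the mark. Here a promoter is the window of 3 kb on each side of the 5′ end of a protein-coding gene, its coverage is the percent of the 6 kb window lying under peaks, and a difference between days is in percentage points of that window.

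Less of the genome was called as marked at DIV7 than at DIV5, in every library. The DIV5 libraries held 12343, 10083 and 15534 peaks, and the DIV7 libraries 5178, 5891 and 9852. Summed peak length was 3.4, 2.37 and 4.0 Mb at DIV5 and 1.25, 1.19 and 2.25 Mb at DIV7. The days did not overlap in either measure, although the longest DIV7 list came close to the shortest DIV5 list. Mean length was 3.26 Mb ± 0.824 (SD, n = 3) at DIV5 and 1.56 Mb ± 0.598 at DIV7, a 2.09-fold difference, and an exact two-sided permutation test over the 6 libraries gave p = 0.1, the smallest that 3 against 3 allows (adjusted p = 0.2 over 8 measures). The peaks of the DIV7 lists were slightly stronger on average: mean fold enrichment was 3.62, 3.87 and 3.77 at DIV5 and 3.98, 4.16 and 3.91 at DIV7 (exact permutation p = 0.1, adjusted p = 0.2). In the lists of equal summed length described below the direction turned, with a mean fold of 4.32 at DIV5 and 4.17 at DIV7 (exact permutation p = 0.2, adjusted p = 0.28). The DMSO libraries, also from DIV5 but from the drug experiments and with vehicle, spanned 1.70 to 4.23 Mb. The shortest of them thus lay below the longest DIV7 list, so with them the days overlapped in summed length.

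**Figure D1:**
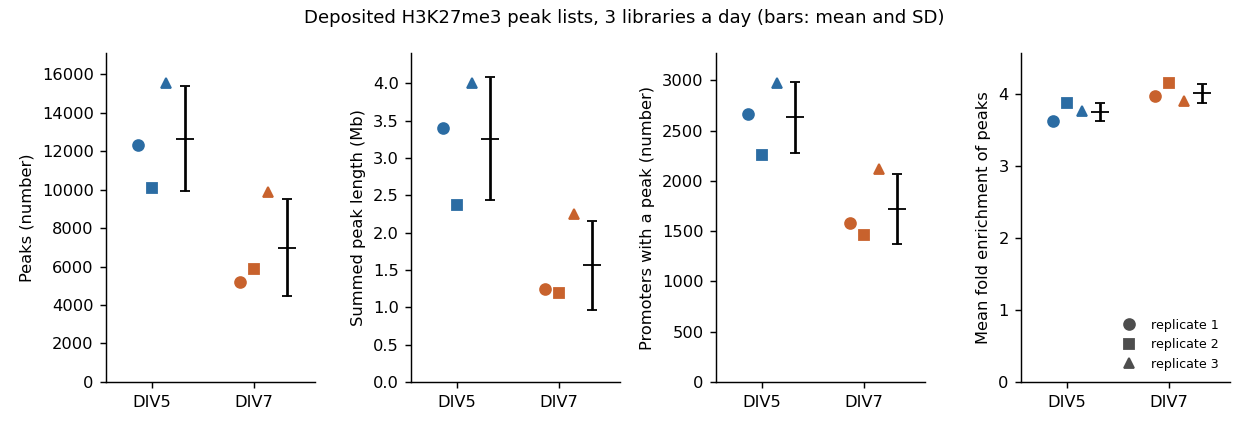
Number of peaks, summed peak length in Mb, number of promoters with a peak and mean fold enrichment of the peaks in each deposited list, with DIV5 in blue, DIV7 in orange, one symbol per replicate and the mean and SD (n = 3) beside them. In the first 3 panels every DIV7 library lies below every DIV5 library, with DIV7 replicate 3 (9852 peaks, 2.25 Mb) nearest to DIV5 replicate 2 (10083 peaks, 2.37 Mb), and in the last panel every DIV7 library lies above.

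The smaller DIV7 lists were distributed over the genome much as the DIV5 lists were. Promoter windows held 40.2%, 38.2% and 36.8% of the summed length at DIV5 and 45.1%, 36.0% and 36.4% at DIV7. Gene bodies outside these windows held 23.1% ± 0.485 at DIV5 and 22.2% ± 1.499 at DIV7, and intergenic sequence 38.5% ± 1.27 and 38.6% ± 3.75 (SD, n = 3 each). None of the 3 shares separated the days (exact permutation p = 1, 0.5 and 0.9). In length, DIV5 exceeded DIV7 by 2.07-fold in promoter windows, 2.15-fold in gene bodies and 2.06-fold between genes. Merging the peaks of the 6 libraries gave 33262 regions, of which 1345 (4.04%) had a peak in all 6 libraries and 23539 (70.8%) in a single library. Of the regions seen in all 6, 664 touched a promoter window, and their median length was 1001 bp against 165 bp over all regions. Within these 1345 regions the median covered length was 697, 512 and 691 bp at DIV5 and 379, 301 and 476 bp at DIV7, so the peaks that both days shared were narrower in each DIV7 library (exact permutation p = 0.1).

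Around gene 5′ ends coverage by all deposited peaks had the same shape at both days and was lower at DIV7. Coverage was highest between the 5′ end and 1 kb into the gene in all 6 libraries, reaching 3.32%, 2.62% and 4.15% at DIV5 and 1.54%, 1.34% and 2.25% at DIV7 as a mean over 21938 promoters. Of the covered promoter sequence, 70.4% ± 0.919 at DIV5 and 73.1% ± 1.02 at DIV7 lay within 1 kb of the 5′ end, with the libraries of the 2 days apart (exact permutation p = 0.1). Once the lists were limited to the same summed length, as described below, the shares were 75.5% ± 1.79 and 74.6% ± 0.774 and the days overlapped (p = 0.6 by the same exact test). Peaks of all 6 libraries were rich in CG dinucleotides, with 2.94 to 3.25 per 100 bases at DIV5 and 3.00 to 3.25 at DIV7.

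**Figure D2:**
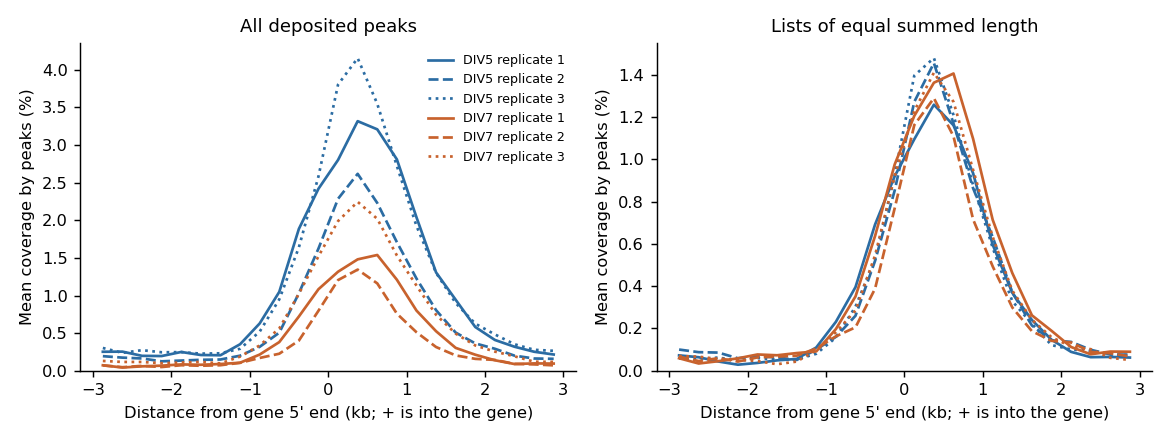
Mean coverage by peaks (percent, y axis) in steps of 250 bp across the promoter window (x axis, kb from the 5′ end, positive into the gene), for each DIV5 library in blue and each DIV7 library in orange, with all deposited peaks on the left and lists of equal summed length on the right. With all peaks the curves have one shape and differ in height, from 1.34% at the top of DIV7 replicate 2 to 4.15% for DIV5 replicate 3, and at equal length they lie over each other.

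The labelled cell type was examined at the promoters of marker genes, where a repressive mark says only that the mark was called. Of 9 granule neuron markers, including Zic1, Zic2, Pax6 and Rbfox3, 8 had no peak in any of the 6 libraries, and Neurod1 had one in a single DIV5 library. Purkinje cell and interneuron markers had a peak at 4 of 10 promoters (Car8 in all 6 libraries), and markers of glia, microglia and vessels at 3 of 12 (Cldn5 in all 6). The defining markers Gfap, Olig2, Sox10 and Csf1r had none at either day, although these genes are silent in neurons. The number of cells of each kind was not measured, and a change in the mark cannot be told apart here from a change in cell composition.

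Most promoters marked at DIV7 were already marked at DIV5. With all deposited peaks, 2661, 2259 and 2971 promoters had a peak at DIV5 and 1576, 1464 and 2117 at DIV7, and 4234 had one in any of the 6 libraries. A peak in all 6 libraries was found at 762 promoters. Of the 828 promoters with a peak in 3 of 3 DIV7 libraries, 92.0% had one in 3 of 3 DIV5 libraries, while of the 1589 promoters with a peak in 3 of 3 DIV5 libraries, 48.0% had one in 3 of 3 at DIV7. A peak in 3 of 3 DIV5 and 0 of 3 DIV7 libraries occurred at 121 promoters, 2.86% of the 4234, and the reverse at 3, or 0.0709%. The unequal lengths of the lists favour the first count. At equal summed length, as described below, the counts were 7 and 64. Those lists held more peaks at DIV7 (mean 4570 against 3462) and more promoters with a peak (1291 against 932), which favours the second count.

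**Figure D3:**
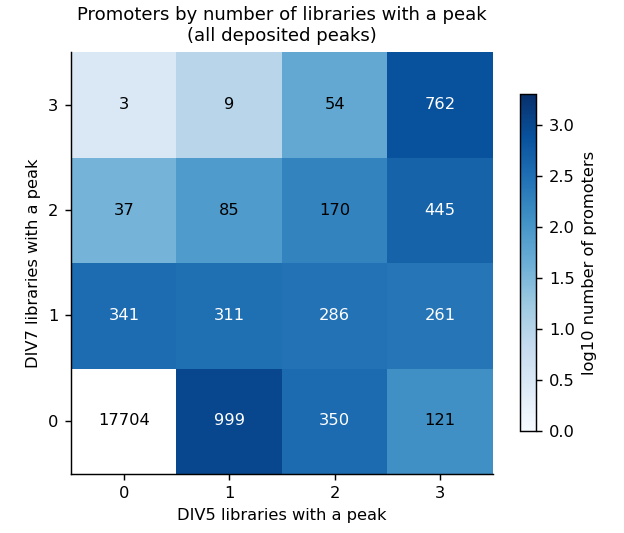
Number of promoters by how many DIV5 libraries (x axis) and DIV7 libraries (y axis) had a peak in the window, with all deposited peaks and the colour on a log10 scale (the 17704 promoters with no peak are left white). The counts are larger below the diagonal than above it: 121 promoters in the lower right corner against 3 in the upper left, and 762 in the upper right.

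The promoters marked only in the DIV5 libraries belonged to genes of varied roles. The largest difference in coverage was at Atp2b4, which encodes a plasma membrane calcium pump (chromosome 1, 5′ end at 133801041, minus strand, mm10). Its coverage was 18.9%, 11.2% and 15.6% at DIV5 and 0% in each DIV7 library, and all 6 DMSO libraries had a peak there (median 9.43%). These values were the same in the lists of equal length, since its DIV5 peaks were among the strongest, yet the promoter did not pass the test described below (difference -15.22 points, SE 3.08, limma adjusted p = 0.119). Prox1, a homeobox transcription factor of several neuronal and endothelial lineages, was covered to 8.13%, 9.33% and 12.9% at DIV5. Cdh23, a cadherin of the hair cell, was at 10.5%, 2.15% and 18.2%, and Cdc42ep1, an effector of the GTPase CDC42, at 14.3%, 12% and 7.15%. Kcnk13, a potassium channel subunit, Spock1, a brain proteoglycan, Scube1, a secreted glycoprotein, and Fam20c, a kinase of secreted proteins, made up the 8 with the largest differences, with DIV5 coverage between 2.48% and 19.3%. In DMSO libraries, which had no part in choosing these promoters, 86 of the 121 had a peak in 3 or more of 6 libraries and 7 had none. Of the 762 promoters with a peak in all 6 DIV5 and DIV7 libraries, 760 had one in 3 or more. The DMSO lists held 1.70 to 4.23 Mb beside 1.25, 1.19 and 2.25 Mb at DIV7. The count therefore does not tell a loss by DIV7 from a difference in list length.

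The 3 promoters marked only in the DIV7 libraries had small peaks. Myo16, an unconventional myosin of neurons (chromosome 8, 5′ end at 10153911), was covered to 5.87%, 2.63% and 1.80% at DIV7, and Arsj, a sulfatase gene (chromosome 3, 5′ end at 126363684), to 4.12%, 1.98% and 1.65%. The remaining one was the gene model Gm3285, which lies outside the rule for names and is given because the count is small. Neither Myo16 nor Arsj had coverage in 3 of 12 libraries of the time course at equal length, so neither was tested. In the DMSO libraries Myo16 had no peak in any of 6 and Arsj a peak in 2.

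To compare the days without the difference in list length, the peaks of each library were taken from the strongest -log10 p downwards until their summed length reached 1.11 Mb, that of the shortest list among the 12 time course libraries. This retained 26.2%, 38.4% and 21.1% of the peaks at DIV5 and 84.7%, 91.3% and 40.0% at DIV7. A peak therefore needed a -log10 p of 5.36, 5.25 and 5.44 to enter the DIV5 lists and of 4.96, 4.803 and 5.22 to enter the DIV7 lists. Coverage was tested in 1794 promoters that had any in at least 3 of the 12 libraries, with limma on all 12 and the contrast DIV7 minus DIV5. At an adjusted p under 0.05, 5 promoters were higher at DIV7 (0.279% of those tested) and 1 was lower (0.0557%). The 5 were Chrna3, Ccna1, Klhl1, Vwc2l and Sh2d4a, and the one lower was Aqp3.

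Chrna3 encodes the alpha3 subunit of nicotinic acetylcholine receptors, best known from autonomic ganglia and the habenula (chromosome 9, 5′ end at 55026562, minus strand). In the lists of equal length its coverage was 0% in each DIV5 library and 14.2%, 14.4% and 12.8% at DIV7, a difference of 13.80 points (SE 1.42, limma adjusted p = 0.00344). With all peaks the same window was covered to 18.4%, 19.3% and 15.95% at DIV5 and 15.97%, 14.4% and 12.8% at DIV7. The days thus overlapped in width. The strongest -log10 p in the window was 5.23, 5.10 and 5.21 at DIV5 and 6.35, 5.40 and 5.73 at DIV7. The promoter was called after a cut by this same value with unequal limits, so these strengths are no separate support. With all peaks the difference was -3.50 points (SE 3.22, limma adjusted p = 0.888). All 6 DMSO libraries also had a peak at Chrna3, and when cut to the same length all 6 still did, with coverage from 2.78% to 16.8%.

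Of these 5, Ccna1 and Klhl1 were those whose days stayed apart with all peaks. Ccna1 encodes cyclin A1, a cyclin of the male germ line (chromosome 3, 5′ end at 55055501, minus strand). Its coverage at equal length was 0% in each DIV5 library and 8.80%, 10.6% and 10.1% at DIV7 (difference 9.82 points, SE 1.09, limma adjusted p = 0.00346). With all peaks it was 5.17%, 0% and 7.93% at DIV5 and unchanged at DIV7 (difference 5.45 points, SE 3.14, limma adjusted p = 0.834). Klhl1 encodes a kelch-like actin-binding protein abundant in Purkinje cells (chromosome 14, 5′ end at 96519102, minus strand). At equal length it was at 0% in each DIV5 library and at 12.2%, 9.85% and 8.78% at DIV7 (difference 10.28 points, SE 1.22, limma adjusted p = 0.0041). With all peaks it was at 4.13%, 0% and 8.03% at DIV5, a difference of 6.22 points (SE 2.03, limma adjusted p = 0.778). The highest DIV5 library lay just under the lowest DIV7 library at both promoters, and DIV5 replicate 2 was the one without a peak at both. In the DMSO libraries, 5 of 6 had a peak at Ccna1 and 4 of 6 at Klhl1, with 1 and 2 of them left at equal length.

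Vwc2l and Sh2d4a had DIV5 peaks of similar width that ranked below the limit. Vwc2l encodes a secreted protein with a von Willebrand factor C domain (chromosome 1, 5′ end at 70725715, plus strand). Its coverage at equal length was 0% in each DIV5 library and 7.68%, 6.80% and 9.62% at DIV7 (difference 8.03 points, SE 1.17, limma adjusted p = 0.0146), whereas with all peaks DIV5 was at 9.10%, 9.63% and 6.97%. Sh2d4a encodes an adaptor with an SH2 domain (chromosome 8, 5′ end at 68276567, plus strand). At equal length it was at 0% in each DIV5 library and at 7.92%, 6.80% and 7.17% at DIV7 (difference 7.29 points, SE 1.06, limma adjusted p = 0.0146), and with all peaks DIV5 was at 0%, 8.47% and 10.0%. The days overlapped at both promoters with all peaks, with differences of -0.53 and 1.14 points (adjusted p = 1 for each in the same limma fit). All 6 DMSO libraries had a peak at each, and at equal length 3 and 5 of them.

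**Figure D4:**
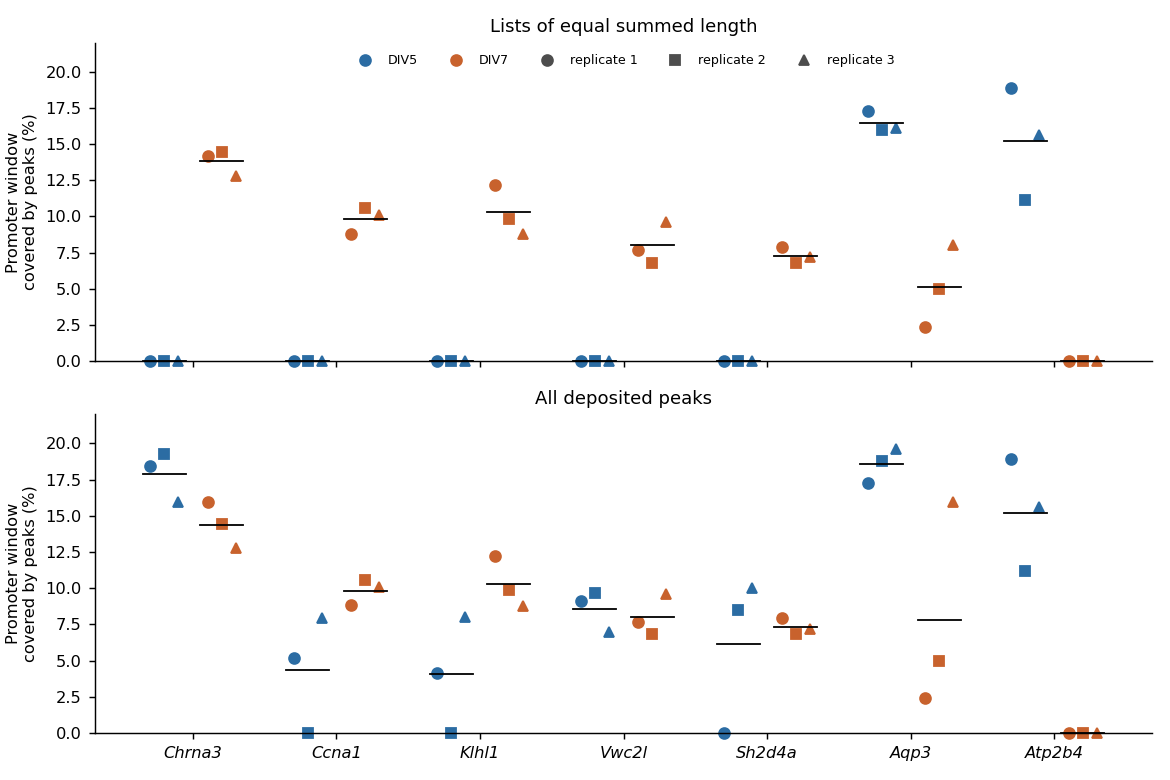
Percent of the 6 kb promoter window covered by peaks (y axis) in each DIV5 (blue) and DIV7 (orange) library, for the 6 called promoters and Atp2b4, at equal summed length (top) and with all deposited peaks (bottom), with a bar at each mean (n = 3). In the top panel the first 5 promoters are at 0% in every DIV5 library, and in the bottom panel Chrna3 and Vwc2l have coverage in all 3 DIV5 libraries, while Aqp3 and Atp2b4 are lower at DIV7 in both.

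**Figure D5:**
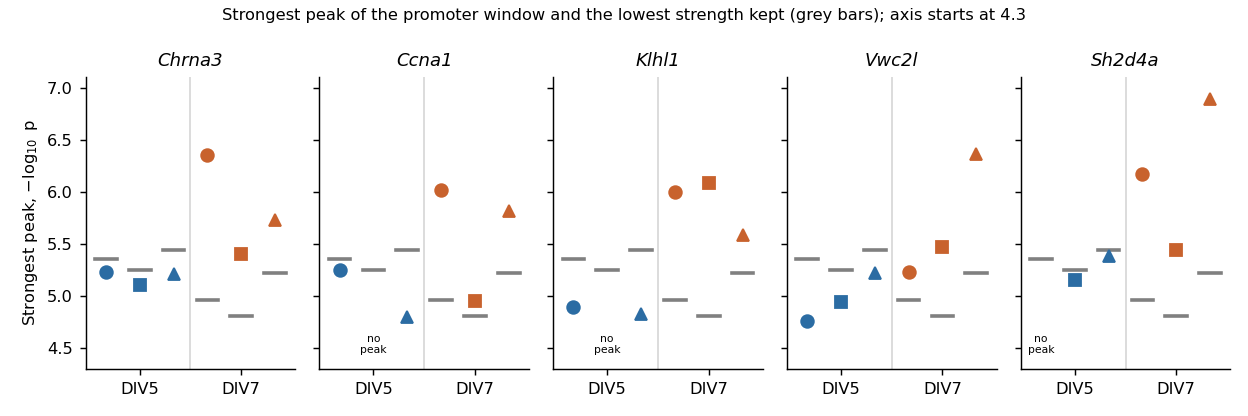
Strongest -log10 p of any peak in the promoter window (symbols, y axis from 4.3) in each DIV5 (blue) and DIV7 (orange) library for the 5 promoters called higher at DIV7, with a grey bar at the lowest -log10 p that entered the list of equal length. Every DIV5 symbol lies under its bar, the closest being Sh2d4a in replicate 3 (5.39 against 5.44), and every DIV7 symbol lies above. Both follow from the cut by -log10 p, since these promoters had no DIV5 coverage and had DIV7 coverage in the cut lists.

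Some limits stand beside these 5 promoters. Ccna1, Klhl1, Vwc2l and Sh2d4a had no coverage at equal length in any DIV1, DIV3 or DIV5 library, so they passed the filter through DIV7 alone and their share of the tested promoters is no support. With any 1 DIV7 library left out these 4 were no longer tested, and Chrna3 was the one of the 5 called, alone without replicate 1 or replicate 3 and among 4 without replicate 2. With any 1 DIV5 library left out Chrna3, Ccna1 and Klhl1 were called, and Vwc2l and Sh2d4a were not (adjusted p from 0.0551 to 0.0828). The adjusted p of Chrna3 ranged from 0.0198 to 0.0406 over the 6 omissions. A fit of the 6 DIV5 and DIV7 libraries alone called none, with a limma adjusted p of 0.0945 at Chrna3. In that fit it was 0.212 at Ccna1 and Klhl1, 0.369 at Vwc2l and 0.371 at Sh2d4a. Replicate 1 of both days carries another lane label than replicates 2 and 3, and with replicate 1 of every day left out none was called and Chrna3 was 13.60 points higher at DIV7 (adjusted p = 0.401).

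The sequence under the peaks of the called promoters is shown for the part lying outside untranslated exons, to show where the mark was called and how CG-rich these stretches are. Vwc2l had no such part, and Atp2b4, which was not called, is shown for its large difference. Each stretch is on mm10, read 5′ to 3′ on the strand of its gene, with CG dinucleotides in capitals. Those of Chrna3, Klhl1 and Sh2d4a were under a peak in all 3 DIV7 libraries, that of Ccna1 in 2 of 3, and those of Aqp3 and Atp2b4 in all 3 DIV5 libraries.
Chrna3 (chr9:55026132-55026189, minus strand): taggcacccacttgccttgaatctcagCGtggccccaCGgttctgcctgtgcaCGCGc
Ccna1 (chr3:55055150-55055241, minus strand): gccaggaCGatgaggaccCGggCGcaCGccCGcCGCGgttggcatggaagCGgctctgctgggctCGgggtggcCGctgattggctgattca
Klhl1 (chr14:96518230-96518317, minus strand): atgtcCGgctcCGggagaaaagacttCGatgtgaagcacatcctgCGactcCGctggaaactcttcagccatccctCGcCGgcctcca
Sh2d4a (chr8:68277026-68277225, plus strand): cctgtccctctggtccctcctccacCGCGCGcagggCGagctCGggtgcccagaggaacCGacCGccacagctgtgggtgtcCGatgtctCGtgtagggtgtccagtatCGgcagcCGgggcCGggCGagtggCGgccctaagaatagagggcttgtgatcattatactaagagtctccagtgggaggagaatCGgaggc
Aqp3 (chr4:41097872-41098071, minus strand): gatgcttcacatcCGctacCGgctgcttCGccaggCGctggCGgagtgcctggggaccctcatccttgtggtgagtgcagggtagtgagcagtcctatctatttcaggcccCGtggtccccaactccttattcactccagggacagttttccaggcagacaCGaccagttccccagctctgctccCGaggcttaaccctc
Atp2b4 (chr1:133801075-133801274, minus strand): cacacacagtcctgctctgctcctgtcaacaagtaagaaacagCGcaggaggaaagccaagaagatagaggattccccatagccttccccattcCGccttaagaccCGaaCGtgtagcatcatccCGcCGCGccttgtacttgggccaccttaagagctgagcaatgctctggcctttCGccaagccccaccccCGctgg

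These stretches set the days apart in different ways. The Chrna3 stretch, in an intron 373 to 430 bases into the gene, was under a peak in every DIV5 library too. That of Ccna1, also in an intron, was covered in DIV5 replicate 3 alone. The Klhl1 stretch, which opens at the start codon, was fully covered in DIV5 replicates 1 and 3 and not in replicate 2, and that of Sh2d4a, in an intron, in DIV5 replicates 2 and 3 and not in replicate 1. For Aqp3, where the stretch crosses from a coding exon into an intron, the DIV7 libraries covered 0%, 52.5% and 100% of it. The Atp2b4 stretch, from position -233 to -34 relative to the 5′ end, was covered in no DIV7 library. CG density over the whole window varied among the called promoters, from 0.7 per 100 bases at Vwc2l, a value that 17.1% of all promoters do not exceed, to 2.47 at Ccna1, which 73.3% do not exceed. The median was 1.80 over all promoters, 2.15 over the 762 with a peak in all 6 libraries and 2.23 over the 121 with peaks at DIV5 alone.

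Aqp3, which encodes a channel for water and glycerol in epithelia, was the promoter that fell (chromosome 4, 5′ end at 41098183, minus strand). Its coverage at equal length was 17.3%, 15.98% and 16.1% at DIV5 and 2.38%, 4.98% and 8.0% at DIV7, with no overlap (difference -11.34 points, SE 1.93, limma adjusted p = 0.0448). With all peaks it was 17.3%, 18.8% and 19.6% at DIV5 and 2.38%, 4.98% and 15.9% at DIV7, so that replicate 3 of DIV7 was nearest to the DIV5 libraries. The difference with all peaks was -10.78 points (SE 3.27, limma adjusted p = 0.778). The strongest peak in the window was about as strong at both days, with a -log10 p of 5.66, 5.30 and 5.49 at DIV5 and 5.80, 5.82 and 5.46 at DIV7, and the DIV7 peaks were narrower. The call was lost with any 1 of the 6 libraries left out (adjusted p from 0.105 to 0.509), and with peaks ranked by fold enrichment the difference was 2.46 points, in the other direction (adjusted p = 0.936). All 6 DMSO libraries had a peak at Aqp3, with a median coverage of 15.8%.

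Other promoters came next by p at equal length without passing the test. Of those lower at DIV7, Eogt, a glycosyltransferase that modifies Notch receptors, was at 5.47%, 8.08% and 12.03% at DIV5 and 0% in each DIV7 library (adjusted p = 0.114). Igfbp2, a binding protein of insulin-like growth factors, was at 4.13%, 4.82% and 3.83% at DIV5 and 0% at DIV7 (adjusted p = 0.375), and had no DIV7 peak with all lists either. Slc22a21, a carnitine transporter, retained DIV7 coverage of 9.50%, 11.4% and 12.8% against 27.6%, 15.5% and 21.98% (adjusted p = 0.375). Cmtm8, a membrane protein of the MARVEL family, Nrk, a kinase on the X chromosome, and S1pr1, a receptor for sphingosine-1-phosphate, completed the 8 with Aqp3 and Atp2b4, with adjusted p of 0.293, 0.44 and 0.442. On the other side, Slc35f1, of a nucleotide sugar transporter family, was at 0% in each DIV5 library and 11.9%, 5.28% and 12.8% at DIV7 (adjusted p = 0.119). Kcne3, a beta subunit of potassium channels, was at 0%, 3.38% and 0% and then 12.7%, 14.3% and 9.62% (adjusted p = 0.126). C1ql1, a secreted C1q-like protein that climbing fibres supply to Purkinje cells, was at 0% and then 6.83%, 3.73% and 7.62% (adjusted p = 0.126). With all peaks the DIV5 coverage of these 3 reached 18.4%, 14.8% and 12.8%, and the days overlapped.

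At equal length the DIV5 and DIV7 libraries did not overlap at 86 tested promoters that were higher at DIV7 (4.79%) and at 79 that were lower (4.4%). These include 64 promoters covered in 3 of 3 DIV7 and 0 of 3 DIV5 libraries, and 7 with the reverse. A promoter covered in the 3 libraries of 1 day alone passes the filter through that day, so these shares are no support. The limit retained more of the DIV7 than of the DIV5 peaks, which bears on how each direction appears in the full lists, where 2833 of 3584 tested promoters had a lower mean at DIV7. Of the 86, none lacked a DIV5 peak in the full lists, 66 had one in 3 of 3 DIV5 libraries, and 61 had lower mean coverage at DIV7 with all peaks. Of the 79, all had lower mean coverage at DIV7 with all peaks, although 55 still had a peak in 3 of 3 DIV7 libraries and 2 in none. With all peaks alone the days were apart at 8 promoters higher at DIV7 and 630 lower (0.223% and 17.6% of 3584). Asking for both kinds of list carries that imbalance over. Of the 1794 promoters tested at equal length, the days were apart in the same direction in both kinds of list at 3 higher at DIV7 and 62 lower. The 3 were Ccna1, Klhl1 and Dpp4, a cell-surface peptidase covered to 3.05%, 6.28% and 8.43% at DIV5 and 10.9%, 12.6% and 15.3% at DIV7 at equal length (adjusted p = 0.821), named because the count is small. The 62 included Aqp3, Atp2b4, Cmtm8, Slc22a21, Igfbp2 and Nrk.

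With all deposited peaks no promoter passed the test. Coverage was tested at 3584 promoters, the median difference was -1.96 points, and 2833 had a lower and 455 a higher mean at DIV7. At an unadjusted p under 0.05, 202 were lower and 6 higher, and the smallest limma adjusted p was 0.7. The days did not overlap at 630 promoters lower at DIV7 (17.6%) and 8 higher (0.223%). A fit of the 6 DIV5 and DIV7 libraries alone, added after seeing the data, called 4 lower and none higher. Sorcs3, a sorting receptor of neurons, was at 17.0%, 20.02% and 21.9% at DIV5 and 3.65%, 1.48% and 2.87% at DIV7 (difference -16.99 points, SE 2.09, limma adjusted p = 0.0429). Tymp, which encodes thymidine phosphorylase, and its neighbour Odf3b share the peak and had the same values, 21.8%, 20.1% and 21.1% against 6.15%, 7.58% and 5.52%. Grasp, which encodes a scaffold for metabotropic glutamate receptors, was at 15.6%, 15.1% and 14.8% against 2.55%, 0% and 0%. All 6 DMSO libraries had a peak at each of the 4. At equal length none of the 4 was called. Sorcs3 and Grasp were then covered at DIV5 in replicate 2 alone, to 13.5% and 15.1%. Tymp and Odf3b were at 0% in each DIV5 library and at 6.15%, 7.58% and 0% at DIV7.

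Over the whole genome, 10 bins of 10 kb were called higher at DIV7 (0.209% of 4785 tested) and 2 lower (0.0418%) at equal length. The 5 higher bins with the smallest p held the 5′ ends of Ccna1, Chrna3, Klhl1, Sh2d4a and Vwc2l, so they repeat the promoters above. A sixth held that of C1ql1, covered to 4.1%, 2.24% and 4.57% at DIV7 and to 0% at DIV5. Of the other 4, 3 lay between protein-coding genes, on chromosomes 10, 1 and 2, and 1 in the gene model Gm7697. One of the lower bins held Aqp3. The other lay inside Eva1c, a gene for a transmembrane receptor of SLIT ligands (chr16:90830001-90840000), away from any promoter window, and was covered to 11.2%, 11.7% and 12.4% at DIV5 and 2.91%, 5.50% and 4.19% at DIV7 (difference -7.56 points, SE 1.12, limma adjusted p = 0.0313). With all peaks the Eva1c bin was at 11.2%, 11.7% and 13.3% and then 2.91%, 5.50% and 4.19%, with the days apart in the full lists too, as at 1535 of 13346 bins lower at DIV7. With all peaks no bin of 13346 passed, and 702 were lower and 27 higher at an unadjusted p under 0.05. Of the 10 higher bins, 2 were still tested with any 1 DIV7 library left out. The others had coverage in the 3 DIV7 libraries alone, so neither their adjusted p nor their share is support. Without DIV7 replicate 1 or DIV7 replicate 3, 1 of the 10 was called, and without DIV7 replicate 2 both, among 8 called in all, while the 2 lower bins were called under no omission of a library.

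Gene groups tied to granule neuron maturation held few members that could be tested. The early genes of the study, which mark precursors and young neurons, had a peak at 3, 2 and 4 of 7 promoters at DIV5 and at 1, 1 and 2 at DIV7. Over all promoters the mean number with a peak fell too, from 2630 to 1719 (65.4% of DIV5). Whether the early genes departed from this was not tested. Atoh1, the transcription factor of the precursors, was covered to 3.33%, 1.15% and 13.1% at DIV5 and 0%, 2.97% and 6.57% at DIV7, and Myc to 5.00%, 4.20% and 14.98% and then 3.35%, 0% and 7.40%. Mycn and Jag1 had a peak at DIV5 in 1 and 2 libraries and none at DIV7, and Ebf3, Nfib and Tubb5 had none at either day. Among the late genes, Grin2c, an NMDA receptor subunit of mature granule neurons, was at 2.45%, 3.05% and 11.6% at DIV5 and 8.85%, 0% and 2.18% at DIV7. Gabrd had a peak in a single DIV5 library, and Grm4, Wnt7a, Gabra6, Olfm3, Slc17a6 and Slc17a7 had none in the 6 libraries. Of the genes named here only Jag1 and Grin2c were tested at equal length, and neither passed (adjusted p = 1).

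Signalling pathways had members with a peak and none that was called. The hedgehog pathway, which drives precursor division, had a peak at 11 of 18 promoters in some library, the Wnt pathway at 24 of 44 and the BMP and TGF-beta pathway at 18 of 33, beside 4234 of 21938 over all promoters (19.3%), shares that were not tested. No member of the 3 lists was called in either direction. Gli1, the effector and target of hedgehog, was at 15.8%, 6.28% and 3.55% at DIV5 and 13.2%, 5.07% and 0% at DIV7 with all peaks. Gli3, its repressor, was at 14.6%, 19.1% and 17.3% and then 3.18%, 0% and 7.83%, with the days apart, while at equal length they overlapped (difference 1.44 points, SE 4.07). The Wnt receptor Fzd6 was also apart with all peaks, at 22.3%, 18.3% and 22.7% and then 13.1%, 14.8% and 12.3%. At equal length its days overlapped (difference -6.12 points, SE 5.24). With all peaks the days were apart and lower at DIV7 at 17.6% of the 3584 promoters tested, so such cases are common. Bmp8a, a BMP ligand, was at 23.6%, 14.2% and 27.6% and then 5.15%, 10.8% and 6.52%.

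Among receptor and channel genes Chrna3 was the one called, beside 5 of all 1794 tested promoters called higher (0.279%). Glutamate receptors had a peak at 16 of 26 promoters, GABA-A and glycine receptors at 13 of 24, voltage-gated potassium channels at 23 of 43, calcium and sodium channels at 16 of 36 and nicotinic receptors at 5 of 16. Over all promoters the share was 19.3%, and these shares were not tested. Chrna3 was 1 of 2 nicotinic receptor promoters tested, and the other, Chrna5, was at 0% in 5 of 6 libraries at equal length. Grm3, a metabotropic glutamate receptor, was at 1.73%, 0% and 0% at DIV5 and 13.8%, 2.38% and 10.5% at DIV7 at equal length (difference 8.33 points, SE 3.06, adjusted p = 0.587). Kcnf1, a modifying potassium channel subunit, was at 0%, 12.4% and 0% and then 11.7%, 18.3% and 10.1% (adjusted p = 0.875). The axon guidance receptor Epha6 was at 7.87%, 0% and 0% and then 14.0%, 10.2% and 9.85% (adjusted p = 0.252), and with all peaks its DIV5 coverage of 15.7%, 11.6% and 22.6% reached above the DIV7 values. Median differences at equal length lay between -0.51 points for GABA-A and glycine receptors and 7.50 for the 2 nicotinic receptors tested, beside 0 over all 1794 promoters. With all peaks the medians of these lists were all below 0, from -0.83 to -2.48 points, beside -1.96 over all 3584.

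Hox genes and fate transcription factors are known targets of Polycomb. Hox genes had a peak at 2 of 39 promoters and fate transcription factors of other lineages at 16 (15.7% of the list), beside 19.3% of all promoters, and these shares were not tested. Among the fate factors Otx2 had a peak in 3 of 3 DIV5 and 0 of 3 DIV7 libraries, as did Ntng1 and Ntng2 among the synaptic adhesion genes, Sema5a among axon guidance genes, Ccnd2 among cell cycle genes and Rpl28 among ribosomal protein genes. Over all promoters with a peak in any of the 6 libraries, 121 of 4234 (2.86%) had this pattern, and 7 promoters had it at equal length. Myod1, the myogenic factor, was at 10.0%, 13.2% and 14.8% at DIV5 and 2.23%, 0% and 0% at DIV7 with all peaks. Of the enzymes that write, read and erase the mark, Phf19, a Polycomb subunit that recruits the complex, was at 11.4%, 5.45% and 12.5% and then 3.38%, 2.15% and 2.23% with all peaks, with the days apart, and it was not called at equal length (adjusted p = 1). Days apart in that direction with all peaks were found at 17.6% of 3584 tested promoters. Purkinje cell and interneuron markers had a peak at 8, 7 and 8 of 20 promoters at DIV5 and at 8, 7 and 9 at DIV7. Pvalb, the parvalbumin gene, was at 0%, 0% and 0% at DIV5 and 3.62%, 2.68% and 5.63% at DIV7 at equal length (adjusted p = 0.41), and at 12.03% in DIV5 replicate 3 with all peaks.

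The 8 most widely covered promoters had a peak in all 6 libraries, and the mean of each was lower at DIV7 with all peaks, by 3.50 to 12.87 points beside a median of -1.96 over all tested promoters. A fall in points can be larger where coverage is high. Over the 762 promoters with a peak in all 6 libraries, mean coverage was 14.4% at DIV5 and 8.82% at DIV7. The window shared by Raet1e and H60b, genes for ligands of a natural killer cell receptor, was at 26.2%, 25.2% and 30.9% at DIV5 and 19.3%, 20.6% and 30.0% at DIV7. Their annotated 5′ ends lie at 22158569 and 22158586 on chromosome 10. Reads there may be split among related genes, which was not measured. Lrat, an enzyme of vitamin A storage, was at 29.9%, 22.2% and 31.5% and then 20.5%, 15.1% and 28.2%, and Aff1, a subunit of the super elongation complex, at 30.9%, 21.3% and 27.9% and then 23.1%, 12.3% and 19.7%. Tac1, which encodes substance P, ranged most among DIV7 libraries, from 4.42% to 29.3%, beside 31.9%, 22.1% and 32.6% at DIV5. The days did not overlap at Lvrn, an aminopeptidase, covered to 29.4%, 24.9% and 24.9% at DIV5 and 17.1%, 20.03% and 20.5% at DIV7, and they were apart there at equal length too. Of all tested promoters, 17.6% with all peaks and 4.4% at equal length were apart and lower at DIV7. Avpr1a, a vasopressin receptor, and Corin, a protease of natriuretic peptides, completed the 8 highest, and no promoter of the 8 passed the test at equal length (adjusted p from 0.49 to 1).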

How the data were processed

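H3K27me3 CUT&RUN was measured in 3 DIV5 and 3 DIV7 libraries. Per the study's methods and the submitters' processing notes, reads were trimmed (Trimmomatic 0.38), aligned to mm10 (STAR 2.7.2b) and broad peaks called per library with MACS2 2.1 at an FDR of 0.1; a control library for the call is not given in the sources used here. The deposited peak lists give a fold enrichment (a ratio), -log10 p, -log10 q and a score for each peak. The authors' score is the -log10 q times 10 and was not used.

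Peaks were overlaid on 21938 GENCODE vM21 promoters (3 kb on each side of the 5′ end) and on 10 kb bins. Lists were cut to 1105530 bp by -log10 p. limma 3.58.1 (R 4.3.3, robust eBayes) was fitted to the 12 time course libraries, with Benjamini-Hochberg adjustment over all features tested. On simulated data for DIV7 against DIV5, over 1794 promoters with 200 changed, the fit recovered 59.5% of changes of 10 points and 89.5% of 20 points, with 7.03% and 6.28% of the calls false, and called none without changes. The simulation shuffled each promoter's deviations from the day means over all 12 libraries. It did not reproduce promoters covered at DIV7 alone or the unequal limits of the days, so its rates need not hold for the calls above. Whole-library measures were compared by exact permutation. Sequences are from GRCm38.p6 (RefSeq), without untranslated exons.

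The promoters named were those called, the 8 per direction with the smallest p and no overlap between days, the 8 per direction with peaks at 1 day, the 8 with the highest coverage, the study's example genes and up to 4 members of each of 20 gene lists. Some genes that this rule names are not reported here. The members and lists were chosen with earlier results of these data known. Read depth is unknown, so coverage has no counting interval. Alternatives are given in the closing section.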

Additional observations from a re-analysis of the deposited data

How the results depend on the processing

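The calls at equal length rested on the list limit and on the 12-library fit. Promoters called higher at DIV7 numbered 5, and 0 with all deposited peaks, 0 in the fit of the 6 libraries, 0 at the common length of the 6 libraries, 0 with replicate 1 of every day left out, 1 with -log10 q of at least 2, 1 with peaks ranked by fold enrichment and 10 with coverage in at least 1 library. Promoters called lower numbered 1, and 0 under each of these settings other than coverage in at least 1 library (1). With a window of 1 kb on each side 7 were higher and 2 lower, and with all peaks in the fit of the 6 libraries (chosen after seeing the data) 0 and 4. Bins called higher numbered 10, and 0 with all peaks (also in the fit of the 6 libraries), 0 at the common length of the 6 libraries, 0 with replicate 1 of every day left out, 1 with -log10 q of at least 2, 1 ranked by fold enrichment, 1 in the fit of the 6 libraries and 17 with coverage in at least 1 library. Bins called lower numbered 2, and 0 under these settings other than -log10 q of at least 2 (1) and coverage in at least 1 library (5). At equal length the 5 promoters remained higher at DIV7 in the fit of the 6 libraries, and with all peaks 3 of the 5 did. The cause was not tested.

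Leaving out 1 library gave 1 to 4 promoters higher and 0 to 2 lower, and 1 to 9 bins higher and 0 to 5 lower. For DIV7 minus DIV5 it gave -7119 to -4239 peaks, -2.14 to -1.32 Mb, -14.7 to -3.83 bp in median peak length, 0.188 to 0.319 in mean fold enrichment, -1110.3 to -741 promoters with a peak, and shares of the length from -2.16 to 2.39 percentage points in promoters, -1.59 to -0.14 in gene bodies and -1.21 to 2.30 between genes. With the replicate block, 3 promoters were higher (Chrna3, Ccna1 and Klhl1) and 0 lower, with Vwc2l, Sh2d4a and Aqp3 at an adjusted p of 0.0774, and 0 bins lower. Replicate numbers do not pair the libraries by design, since the labels do not tie a number to a litter or day: correlations of same-numbered deviations were 0.0552, 0.0173 and 0.0536 at equal length and 0.117, 0.155 and 0.0594 with all peaks, each higher than those with the other numbers.

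Promoters with a peak in 3 of 3 DIV5 and 0 of 3 DIV7 libraries fell from 121 to 7 with -log10 q of at least 2 and to 7 at equal length. The reverse count of 3 became 1 with at least 100 bases covered, 0 with -log10 q of at least 2 and 64 at equal length. With -log10 q of at least 2 the differences were -565 peaks, -0.209 Mb, -122.3 promoters and -1.83 points in the promoter share, and at equal length 1108 peaks, -27.2 bp, -0.142 in fold enrichment and 358.7 promoters. Among named promoters, Chrna3 and Vwc2l were lower at DIV7 with all peaks, by -3.50 and -0.53 points in both fits, and Aqp3 was 2.46 points higher with peaks ranked by fold enrichment.

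Depth sets what a list can hold, and it is unknown here. The median 95% interval of a promoter's difference reached 6.16 points on each side, and smaller differences could not be seen at such a promoter.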
